A study of Homo sapiens with 7 samples.

Results

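Collagen chains and the hydroxylases that modify them were followed across 7 Affymetrix genome-wide expression arrays of human dermal fibroblasts that expressed progerin or excess prelamin A. The set was chosen by name: every gene on the array whose symbol reads as a collagen chain, plus the lysyl hydroxylases PLOD1, PLOD2 and PLOD3, the prolyl 4-hydroxylase subunits P4HA1, P4HA2 and P4HA3, and the prolyl 3-hydroxylase P3H2. It held 50 of the 19775 genes on the array, 43 of them collagen chains and 7 hydroxylases. At the minimum set for testing, a signal of 100 or more on any array, 35 of the 50 genes (28 chains and all 7 hydroxylases) and 12726 genes in all remained and were tested. The other 15 chains, whose highest signals lay between 10.9 and 97.1, were COL2A1, COL4A3, COL4A4, COL4A5, COL4A6, COL6A5, COL9A1, COL9A3, COL19A1, COL20A1, COL23A1, COL24A1, COL25A1, COL26A1 and COL28A1.

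The study asked which genes change when lamin A processing is disturbed, and which of those changes move back when the cells are treated. Lamin A, a protein of the nuclear lamina, is made as the farnesylated precursor prelamin A and cut to its mature form by the protease ZMPSTE24, whereas progerin is the mutant form found in progeria and keeps its farnesyl group. A farnesyltransferase inhibitor (FTI), here L-744832, blocks the attachment of that group. The labels give the same dermal fibroblast strain of a healthy individual for all 7 arrays, whereas the methods name 2 strains and transduction of 2 lines with each virus, without saying which went on the arrays, so a strain shared by transduced and control cells rests on the labels alone. RNA was taken at passage 10. The arrays held cells expressing progerin and given FTI at 10 nM for 48 h (progerin and FTI cells), cells expressing progerin (progerin cells), cells expressing prelamin A and given the same FTI treatment (prelamin A and FTI cells), cells expressing both prelamin A and ZMPSTE24 (prelamin A and ZMPSTE24 cells), cells expressing prelamin A (prelamin A cells) and control cells. The control condition had 2 arrays and every other condition 1. For prelamin A and FTI cells the sample title mentions FTI alone, while the other labels name the transgene as well. According to the methods, transgenes were delivered by lentivirus made in a human embryonic kidney cell line and driven by a CMV promoter, and transduced cells were sorted. The labels do not say whether the control cells carried a virus or whether the untreated cells were given the DMSO vehicle, so transduction itself and the transgene cannot be told apart.

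Collagens are proteins of the extracellular matrix in which chains wind around each other into a rope-like helix. Fibril-forming types I, III and V give skin its tensile strength, type IV builds the sheet of the basement membrane, type VI forms beaded filaments, and other types sit on fibril surfaces or in the cell membrane. Before the helix closes, hydroxylases in the endoplasmic reticulum add hydroxyl groups to proline and lysine, which stabilise the helix and prepare it for cross-linking.

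Levels are the deposited signals, scaled by the authors to the same mean on every array. Changes are differences of log2(signal + 16), which understate the change of dim genes, each with its standard error (SE) and p from limma. A gene was called changed in a comparison of single conditions where it differed by more than 2-fold with an unadjusted limma p under 0.05. With 1 array per condition, the residual spread came from the 2 controls alone, and nothing says whether those were separate cultures, so the p-values may measure technical spread only. No member had an adjusted p under 0.05 in these comparisons. In a second model the arrays were pooled into 3 states, control, lamin (progerin cells and prelamin A cells) and treated (the other 3 transduced arrays), and there a gene was called at an adjusted p under 0.05. Because these are whole cultures, fewer collagen-making cells and less collagen mRNA per cell cannot be told apart.

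On the array as a whole, median signals lay between 64.9 and 77.0, and the ratio of 3' to 5' signal of ACTB was 1.12 to 1.62 on the transduced arrays, highest in prelamin A cells, and 1.06 and 1.24 in control cells. All 8 fibroblast markers were above 100, with summed signals of 158000 to 185000 on the transduced arrays and 168000 to 185000 in controls. The sum hides markers that moved in opposite directions. PDGFRA was 8815 to 12272 on the transduced arrays against 19077 and 18595 in controls. S100A4 was 30682 to 34139 on the transduced arrays against 28188 and 27665 in controls. No fibroblast marker was called in either line against control. The epithelial markers KRT5, KRT14, KRT1, CDH1 and EPCAM and the endothelial markers CDH5, VWF and KDR stayed below 100 throughout. The summed signal of 5 endothelial markers, of which 2 passed 100, was 363 to 503 on the transduced arrays and 192 to 270 in controls. TEK carried this difference, at 167 to 344 on the transduced arrays against 23.5 and 2.19 in controls, and reached 100 only on transduced arrays. PECAM1, the other that passed 100, was not called. The summed signal of 5 genes of embryonic kidney cells, the lineage that produced the virus, of which 4 passed 100, was 486 to 991 on the transduced arrays and 134 to 176 in controls. INA was 270 to 545 on the transduced arrays against 12.8 and 5.20 in controls. NEFL and NEFM were also above both controls on all transduced arrays, whereas PAX2 overlapped the controls. All of these genes reached 100 only on transduced arrays. The haematopoietic sum of 4 measured markers was 311 to 652 on the transduced arrays and 137 to 247 in controls. PTPRC and LYZ stayed below 100 throughout. CD14 differed by 2.01 (SE 0.39) in progerin cells and by 1.97 (SE 0.39) in prelamin A cells, and was called in both. With 87.2 and 55.3 in controls, CD14 reached 100 only on transduced arrays, so these calls are a description and no support for a rise. The sum of 6 epithelial markers, carried by KRT10, was 5050 to 6590 on the transduced arrays and 7620 to 10800 in controls, and KRT10 itself was not called. The smooth muscle and pericyte sum was 1080 to 2430 on the transduced arrays and 921 to 1170 in controls, which overlap, with CNN1 called higher in progerin cells (1.44, SE 0.37), and the melanocyte and Schwann markers stayed below 100. The part of these differences and of the ACTB ratio in the collagen values was not tested.

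More collagen members fell than rose in both lines. In progerin cells 9 of 35 members fell and 1 rose, against 2.04% of all genes lower and 3.76% higher. In prelamin A cells 9 fell and 4 rose, against 4.02% of all genes lower and 6.29% higher. Of these 4, COL6A6 and COL9A2 reached the minimum of 100 only on prelamin A arrays. The filter thus let them in through the group where they were high. When the mean over the 7 arrays had to reach 100 instead, 10 of 30 members were lower and 2 higher in prelamin A cells. At that filter 9.64% of all genes were called lower or higher, a share not split by direction. The median log2 change of the members was -0.39 in progerin cells, with 28 of 35 below 0, beside 0.01 for all genes, and in prelamin A cells it was -0.58, with 25 below 0, beside -0.02 for all genes. Both comparisons use the same 2 controls. The members lower in both were 8 (COL4A1, COL5A1, COL5A2, COL5A3, COL8A1, COL11A1, COL15A1 and P3H2), beside 0.802% of all genes, and the member higher in both was COL13A1, beside 2.32% of all genes. All 5 transduced arrays lay below both controls for 16 members and above both for 2 members, beside 12.3% and 11.9% of all genes.

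**Figure D1:**
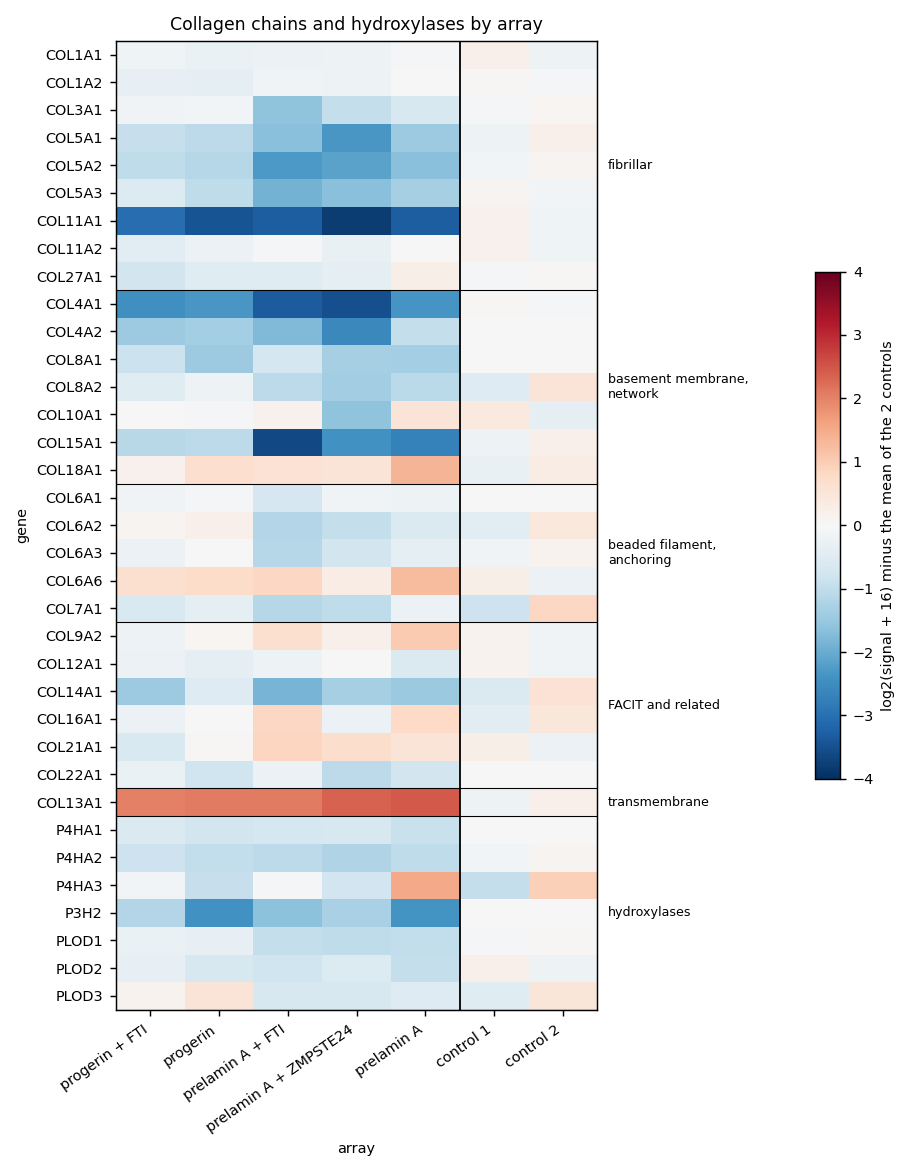
The heat map gives, for each tested member (rows, grouped by structural class) and each array (columns), the log2(signal + 16) minus the mean of the 2 controls, with blue for lower and red for higher. COL11A1 and COL4A1 are dark blue on all 5 transduced arrays, COL13A1 is red on all of them, and the type I chains stay pale.

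The fibril-forming collagens behaved unequally. COL11A1, the alpha 1 chain of type XI collagen, which is best known from cartilage fibrils, had the largest decrease of the members in both lines. Its signal was 1749 in progerin and FTI cells, 1338 in progerin cells, 1478 in prelamin A and FTI cells, 1052 in prelamin A and ZMPSTE24 cells and 1469 in prelamin A cells, against 16514 and 13105 in the 2 controls. Every transduced array was thus well below both controls, and the transduced arrays differed little among themselves. COL11A1 fell by 3.44 (log2) in progerin cells (SE 0.35, limma adjusted p = 0.241) and fell by 3.31 in prelamin A cells (SE 0.35, limma adjusted p = 0.109). Its partner chain in type XI, COL11A2, was dim, with signals of 123 to 177 on the transduced arrays against 153 and 202 in controls, and it was not called, with log2 changes of -0.24 (SE 0.35) in progerin cells and 0.01 (SE 0.35) in prelamin A cells.

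COL11A1 spans chr1:102876473-103108522 on the minus strand of GRCh38.p14. The sequence before its annotated start is shown because it is the member that fell most. The 250 bases lie at chr1:103108523-103108772 and are 68.8% G or C, and capitals mark CCAAT and GGGCGG or their reverse complements, ATTGG and CCGCCC, with 1 and 3 matches here.
COL11A1: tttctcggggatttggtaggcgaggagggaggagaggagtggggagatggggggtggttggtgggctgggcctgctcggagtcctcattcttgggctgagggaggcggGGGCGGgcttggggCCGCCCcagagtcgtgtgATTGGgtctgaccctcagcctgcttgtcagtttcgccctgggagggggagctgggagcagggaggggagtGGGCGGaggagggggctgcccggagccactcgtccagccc
Promoter sequence comes from RefSeq, in which 26 of the 35 members were matched to 36 windows. Within those 250 bases before the start, CCAAT was found in 10 of the 36 member windows against 32.0% of 35116 windows of all genes, GGGCGG in 24 against 42.6%, and TATAAA in 8 against 10.7%, on either strand. These matches only describe letters.

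All 3 measured chains of type V collagen, a minor component of dermal fibrils that regulates their diameter, fell in both lines. COL5A1 had signals of 8330 in progerin and FTI cells, 7608 in progerin cells, 4851 in prelamin A and FTI cells, 3100 in prelamin A and ZMPSTE24 cells and 5751 in prelamin A cells, against 13642 and 17967 in controls. COL5A2 had 9975 in progerin and FTI cells, 9011 in progerin cells, 4106 in prelamin A and FTI cells, 4572 in prelamin A and ZMPSTE24 cells and 6286 in prelamin A cells, against 18737 and 21452 in controls. COL5A3 was far dimmer, at 395 in progerin and FTI cells, 283 in progerin cells, 147 in prelamin A and FTI cells, 176 in prelamin A and ZMPSTE24 cells and 225 in prelamin A cells, against 633 and 550 in controls. For each chain the 5 transduced arrays were all below both controls, and the 3 prelamin A arrays were all below the 2 progerin arrays.

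COL5A1 fell by 1.04 in progerin cells (SE 0.36, limma adjusted p = 0.683) and fell by 1.44 in prelamin A cells (SE 0.36, limma adjusted p = 0.257). COL5A2 fell by 1.15 (SE 0.33, limma adjusted p = 0.588) in progerin cells and fell by 1.67 (SE 0.33, limma adjusted p = 0.191) in prelamin A cells. COL5A3 fell by 1.02 (SE 0.33, limma adjusted p = 0.657) in progerin cells and fell by 1.33 (SE 0.33, limma adjusted p = 0.256) in prelamin A cells. The 2 progerin calls at the margin depend on a control array: COL5A1 changed by -0.84 without control 2 and COL5A3 by -0.92 without control 1, both less than 2-fold. COL5A3 at its other probe set changed by -0.33 in progerin cells and was not called.

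The bulk collagens of skin were not called at their brightest probe sets. COL1A1, a chain of type I collagen, had signals of 28403 to 32724 on the 5 transduced arrays against 29878 and 39093 in controls, which overlap. COL1A2, its partner, had 38261 to 49536 on the transduced arrays against 48241 and 52329 in controls, which also overlap. At these probe sets the changes of COL1A1 were -0.27 (SE 0.36) in progerin cells and -0.06 (SE 0.36) in prelamin A cells. Those of COL1A2 were -0.39 (SE 0.32) in progerin cells and -0.02 (SE 0.32) in prelamin A cells. At the other probe sets of COL1A2 the 5 transduced arrays lay below both controls. They gave 23968 to 32157 against 38574 and 43659, and 7168 to 9879 against 10537 and 14604. The changes there were -0.62 and -0.60 in progerin cells and -0.35 and -0.33 in prelamin A cells, all under 2-fold.

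COL3A1, which forms type III fibrils beside type I, separated the prelamin A arrays from the others. Its signal was 33344 in progerin and FTI cells, 34131 in progerin cells, 11993 in prelamin A and FTI cells, 18980 in prelamin A and ZMPSTE24 cells and 23834 in prelamin A cells, against 35289 and 38721 in controls. All transduced arrays were below both controls, the progerin arrays by little. The change was not called in progerin cells, at -0.12 (SE 0.32), or in prelamin A cells, at -0.63 (SE 0.32, limma adjusted p = 0.56). COL3A1 and COL5A2 are neighbours on chromosome 2, with 19151 bases between their annotated spans.

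The type IV chains of the basement membrane fell strongly. COL4A1 had signals of 645 in progerin and FTI cells, 702 in progerin cells, 341 in prelamin A and FTI cells, 298 in prelamin A and ZMPSTE24 cells and 693 in prelamin A cells, against 3724 and 3459 in controls. COL4A2, which pairs with COL4A1 in the most widespread form of type IV, had 1597 in progerin and FTI cells, 1711 in progerin cells, 1279 in prelamin A and FTI cells, 715 in prelamin A and ZMPSTE24 cells and 2241 in prelamin A cells, against 4297 and 4453 in controls. No transduced array overlapped the controls for either chain. COL4A1 fell by 2.33 in progerin cells (SE 0.32, limma adjusted p = 0.291) and fell by 2.35 in prelamin A cells (SE 0.32, limma adjusted p = 0.128). COL4A2 fell by 1.35 in progerin cells (SE 0.32, limma adjusted p = 0.485), and in prelamin A cells its change of -0.96 (SE 0.32, limma adjusted p = 0.365) was just under 2-fold and was not called.

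COL4A1 and COL4A2 lie head to head on chromosome 13 and are transcribed away from each other, so that the same short stretch precedes both. The 126 bases between their annotated spans, at chr13:110307158-110307283 of GRCh38.p14, are printed on the plus strand, the direction of COL4A2, because this stretch precedes both genes, which fell together in progerin cells. They are 80.2% G or C, and capitals mark the 1 CCAAT and the 1 GGGCGG found.
COL4A1-COL4A2: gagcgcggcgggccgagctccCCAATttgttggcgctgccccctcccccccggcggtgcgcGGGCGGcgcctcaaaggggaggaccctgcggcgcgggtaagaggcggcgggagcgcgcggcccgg
COL4A1 spans chr13:110148963-110307157 on the minus strand and COL4A2 spans chr13:110307284-110513209 on the plus strand.

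Among the other network-forming and basement membrane chains, COL8A1 and COL15A1 fell in both lines. COL8A1, a short-chain collagen of vessel walls and corneal membranes, had signals of 13029 in progerin and FTI cells, 8697 in progerin cells, 14700 in prelamin A and FTI cells, 9485 in prelamin A and ZMPSTE24 cells and 9245 in prelamin A cells, against 24177 and 23368 in controls. It fell by 1.45 in progerin cells (SE 0.32, limma adjusted p = 0.448) and fell by 1.36 in prelamin A cells (SE 0.32, limma adjusted p = 0.245). COL8A2, its partner in type VIII, gave 644 to 1499 on the transduced arrays against 1187 and 2483 in controls, with log2 changes of -0.19 (SE 0.54) in progerin cells and -1.09 (SE 0.54, limma adjusted p = 0.543) in prelamin A cells, and was not called. The controls for COL8A2 were more than 2-fold apart.

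COL15A1, a proteoglycan-like collagen that lies between basement membranes and fibrils, showed the largest gap between the lines among the members called in both. Its signal was 3034 in progerin and FTI cells, 3208 in progerin cells, 523 in prelamin A and FTI cells, 1212 in prelamin A and ZMPSTE24 cells and 1002 in prelamin A cells, against 5737 and 7661 in controls. It fell by 1.04 in progerin cells (SE 0.36, limma adjusted p = 0.691), where the change was -0.84 without control 2, and fell by 2.71 in prelamin A cells (SE 0.36, limma adjusted p = 0.127). Its relative COL18A1, the source of the fragment endostatin, was 149 in progerin and FTI cells, 221 in progerin cells, 204 in prelamin A and FTI cells, 196 in prelamin A and ZMPSTE24 cells and 364 in prelamin A cells, against 103 and 167 in controls. COL18A1 rose by 1.37 in prelamin A cells (SE 0.41, limma adjusted p = 0.324) and was not called in progerin cells (0.68, SE 0.41), and the progerin and FTI array lay between the controls.

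**Figure D2:**
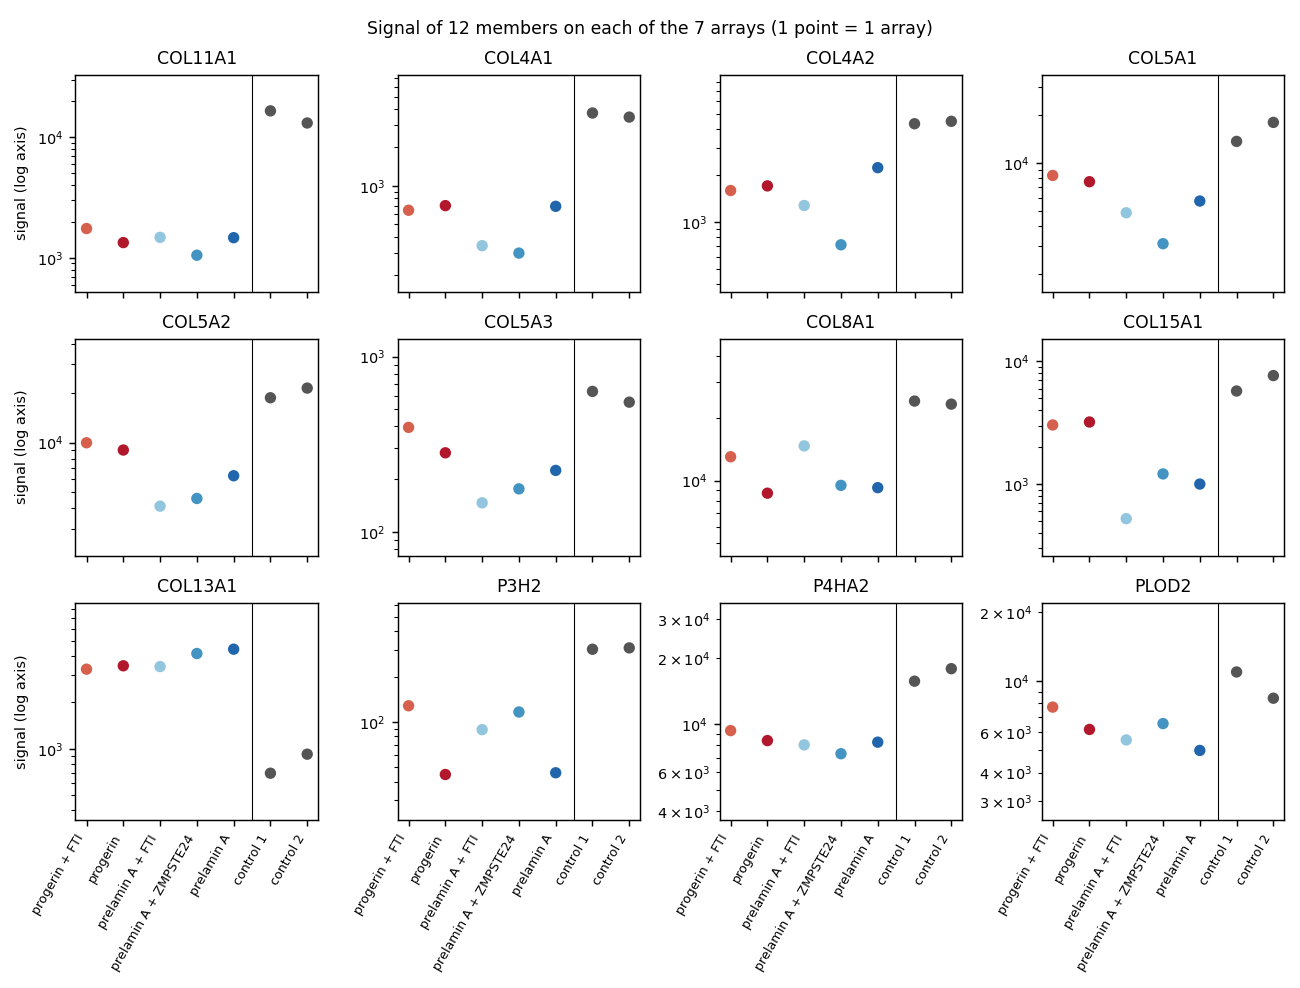
Each panel plots the signal of a member on a log axis for each of the 7 arrays, 1 point an array, with the 5 transduced arrays left of the vertical line and the 2 controls right of it. The controls lie above all transduced arrays in every panel except that of COL13A1, where they lie below, and P3H2 is dimmest in progerin cells (44.6) and prelamin A cells (45.8).

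The main type VI chains, which form beaded filaments around fibroblasts, were not called. COL6A1 had signals of 20848 to 31370 on the transduced arrays against 33154 and 33273 in controls, COL6A2 had 10340 to 26872 on the transduced arrays against 17524 and 30856 in controls, and COL6A3 had 11879 to 26157 on the transduced arrays against 23744 and 29276 in controls. The lowest transduced array for all 3 was that of prelamin A and FTI cells. Log2 changes lay between -0.08 (COL6A1, SE 0.32) and 0.21 (COL6A2, SE 0.46) in progerin cells and between -0.58 (COL6A2, SE 0.46) and -0.21 (COL6A1, SE 0.32) in prelamin A cells. COL6A6, a minor and dim chain, had signals of 85.6 in progerin and FTI cells, 92.3 in progerin cells, 99.6 in prelamin A and FTI cells, 62.4 in prelamin A and ZMPSTE24 cells and 139 in prelamin A cells, against 59.8 and 38.9 in controls. All transduced arrays were above the controls, by little in prelamin A and ZMPSTE24 cells, and COL6A6 differed by 1.27 in prelamin A cells (SE 0.37, limma adjusted p = 0.314). It reached 100 on the prelamin A array alone and was tested only through it, so that this call is a description and no support for a rise, and it was not among the genes kept by mean signal.

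Of the collagens that bind fibril surfaces, COL12A1 was bright, at 19129 to 28215 on the transduced arrays against 25691 and 31300 in controls, and was not called, with changes of -0.39 (SE 0.34) in progerin cells and -0.57 (SE 0.34) in prelamin A cells. COL9A2, a type IX chain known from cartilage, had signals of 55.0 in progerin and FTI cells, 70.7 in progerin cells, 110 in prelamin A and FTI cells, 77.9 in prelamin A and ZMPSTE24 cells and 153 in prelamin A cells, against 74.2 and 58.0 in controls. It differed by 1.05 in prelamin A cells (SE 0.34, limma adjusted p = 0.356), a change of 0.90 without control 2, and the progerin arrays overlapped the controls. Like COL6A6 it was tested only through prelamin A arrays and was not kept by mean signal. The remaining chains, COL7A1 of anchoring fibrils, COL14A1, COL16A1, COL21A1, COL22A1 and COL27A1, were not called, with changes of -0.78 to 0.05 in progerin cells and -1.47 to 0.80 in prelamin A cells.

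COL13A1, a collagen that spans the cell membrane and is found at cell contacts, was the member that rose in both lines. Its signal was 3278 in progerin and FTI cells, 3448 in progerin cells, 3407 in prelamin A and FTI cells, 4140 in prelamin A and ZMPSTE24 cells and 4416 in prelamin A cells, against 695 and 923 in controls. The 5 transduced arrays were close together and far above the controls. COL13A1 rose by 2.08 in progerin cells (SE 0.36, limma adjusted p = 0.353) and rose by 2.44 in prelamin A cells (SE 0.36, limma adjusted p = 0.13). Its other probe sets changed by 1.14 and 1.24 in progerin cells and by 1.12 and 0.76 in prelamin A cells, the last of which was under 2-fold. The 250 bases before its start, at chr10:69801656-69801905 on the plus strand, are shown for contrast with the chains that fell. They are 64% G or C and hold no CCAAT and no GGGCGG, and capitals mark the 1 TATAAA found.
COL13A1: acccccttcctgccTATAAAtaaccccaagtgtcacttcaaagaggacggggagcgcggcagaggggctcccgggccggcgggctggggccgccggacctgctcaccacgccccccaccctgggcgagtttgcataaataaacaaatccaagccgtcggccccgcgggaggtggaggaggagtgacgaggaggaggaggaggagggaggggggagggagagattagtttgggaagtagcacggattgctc

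Of the 7 hydroxylases, 5 lay below both controls on all transduced arrays (P3H2, P4HA1, P4HA2, PLOD1 and PLOD2), beside 12.3% of all genes. Among the hydroxylases P3H2 fell most. P3H2, a prolyl 3-hydroxylase known to act on type IV collagen, had signals of 128 in progerin and FTI cells, 44.6 in progerin cells, 88.7 in prelamin A and FTI cells, 116 in prelamin A and ZMPSTE24 cells and 45.8 in prelamin A cells, against 304 and 311 in controls. The 2 untreated lamin arrays were lowest, the 3 treated arrays intermediate and the controls highest, without overlap. P3H2 fell by 2.42 in progerin cells (SE 0.32, limma adjusted p = 0.28) and fell by 2.39 in prelamin A cells (SE 0.32, limma adjusted p = 0.127). The 250 bases before its start, at chr3:190122279-190122528 on the minus strand of GRCh38.p14, are shown because it is the hydroxylase that changed most. They are 51.2% G or C, and capitals mark the 1 CCAAT found.
P3H2: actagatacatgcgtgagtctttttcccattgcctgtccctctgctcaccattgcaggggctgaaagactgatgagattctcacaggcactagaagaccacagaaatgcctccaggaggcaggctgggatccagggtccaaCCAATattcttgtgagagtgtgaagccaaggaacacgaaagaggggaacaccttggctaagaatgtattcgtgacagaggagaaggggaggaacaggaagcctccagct

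The prolyl 4-hydroxylase subunits P4HA1 and P4HA2, which carry the catalytic site that makes the helix stable at body temperature, were lower on all transduced arrays. P4HA1 had 8394 in progerin and FTI cells, 7600 in progerin cells, 7707 in prelamin A and FTI cells, 8139 in prelamin A and ZMPSTE24 cells and 6786 in prelamin A cells, against 12722 and 12513 in controls. P4HA2 had 9315 in progerin and FTI cells, 8388 in progerin cells, 8018 in prelamin A and FTI cells, 7308 in prelamin A and ZMPSTE24 cells and 8250 in prelamin A cells, against 15655 and 17852 in controls. The controls stood clear of the transduced arrays for both. The changes lay near 2-fold: P4HA1 changed by -0.73 (SE 0.32) in progerin cells and by -0.89 (SE 0.32) in prelamin A cells, neither called, and P4HA2 changed by -0.99 (SE 0.33, limma adjusted p = 0.667) in progerin cells, not called, and fell by 1.02 in prelamin A cells (SE 0.33, limma adjusted p = 0.352), a call lost without control 2 (-0.92).

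P4HA3, a further catalytic subunit, varied without a pattern by group. Its signal was 350 in progerin and FTI cells, 194 in progerin cells, 367 in prelamin A and FTI cells, 216 in prelamin A and ZMPSTE24 cells and 1110 in prelamin A cells, against 190 and 741 in controls. The controls alone differed by more than 2-fold, and the changes of -0.91 (SE 0.83) in progerin cells and 1.51 (SE 0.83) in prelamin A cells were not called.

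Between the 2 control arrays, 4 members were more than 2-fold apart, COL7A1, COL8A2, COL14A1 and P4HA3, all higher in control 2, beside 4.31% of all genes that were higher there and 4.97% that were higher in control 1. COL7A1, the anchoring fibril collagen, had signals of 419 in progerin and FTI cells, 483 in progerin cells, 286 in prelamin A and FTI cells, 310 in prelamin A and ZMPSTE24 cells and 543 in prelamin A cells, against 356 in control 1 and 1156 in control 2. COL14A1, which binds fibril surfaces, had 101 in progerin and FTI cells, 209 in progerin cells, 73.2 in prelamin A and FTI cells, 113 in prelamin A and ZMPSTE24 cells and 101 in prelamin A cells, against 199 in control 1 and 473 in control 2.

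No lysyl hydroxylase was called at its brightest probe set. PLOD1, which prepares helical lysines for cross-links, had 5388 in progerin and FTI cells, 5161 in progerin cells, 3395 in prelamin A and FTI cells, 3230 in prelamin A and ZMPSTE24 cells and 3285 in prelamin A cells, against 6323 and 6786 in controls. PLOD2, which acts on the telopeptides, had 7709 in progerin and FTI cells, 6164 in progerin cells, 5551 in prelamin A and FTI cells, 6537 in prelamin A and ZMPSTE24 cells and 4997 in prelamin A cells, against 10956 and 8425 in controls. Both were below the controls on all transduced arrays, with changes of PLOD1 of -0.34 (SE 0.32) in progerin cells and -0.99 (SE 0.32, limma adjusted p = 0.355) in prelamin A cells, and of PLOD2 of -0.64 (SE 0.35) in progerin cells and -0.94 (SE 0.35, limma adjusted p = 0.423) in prelamin A cells. PLOD3 had 2615 to 5880 on the transduced arrays against 2905 and 5778 in controls, which overlap, and changed by 0.52 (SE 0.51) in progerin cells and by -0.52 (SE 0.51) in prelamin A cells.

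**Figure D3:**
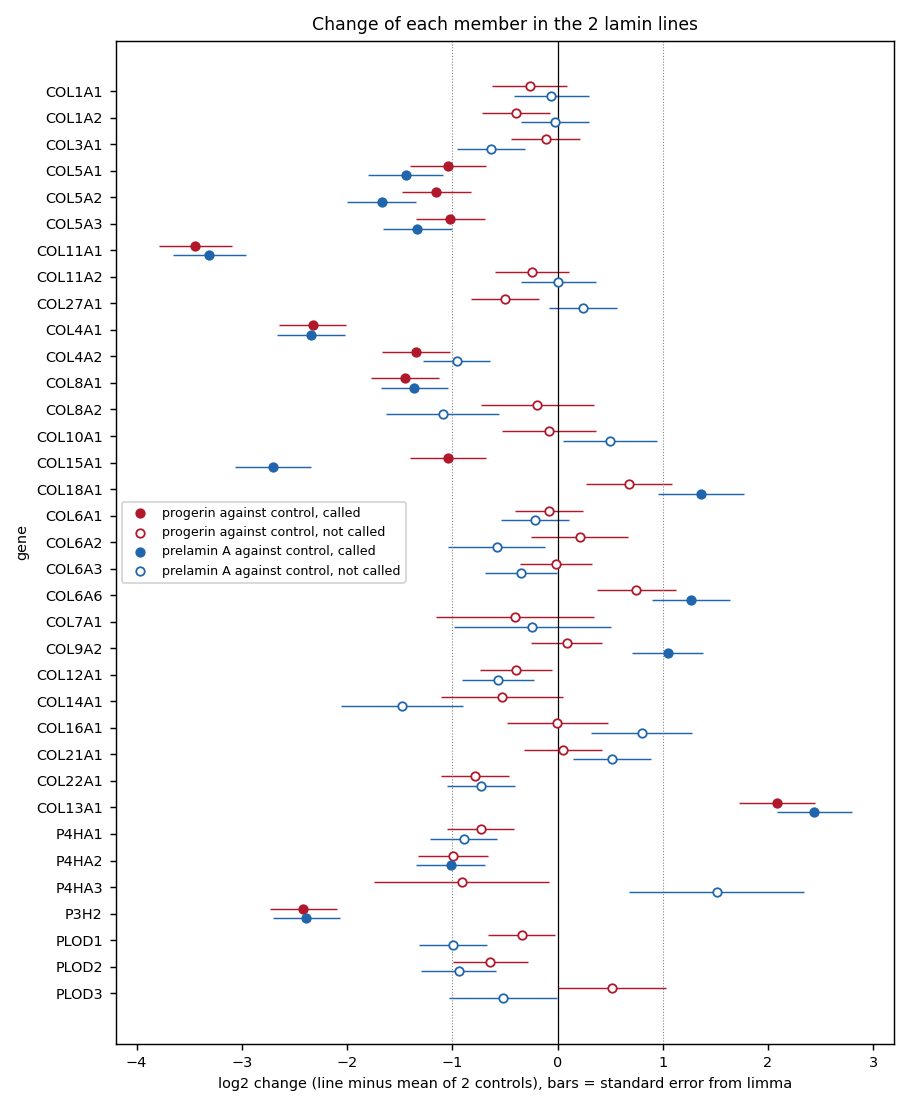
Points give the log2 change of each tested member in progerin cells (red) and prelamin A cells (blue) against the mean of the 2 controls, with standard errors from limma as bars, filled where the change passed 2-fold (dotted lines) and an unadjusted p under 0.05. The filled points on the left include COL11A1, COL4A1, the type V chains and P3H2 in both colours, and COL13A1 is filled on the right.

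Pooling arrays into 3 states gave more residual degrees of freedom. In the lamin and treated states, however, arrays of different conditions stand in for replicates, and only the control state holds arrays of the same condition. Both lines occur in the lamin and in the treated state, so these states are not independent of each other. On the 2 lamin arrays against control, 2 members fell and 1 rose at an adjusted p under 0.05, against 0.0943% of all genes lower and 0.464% higher. COL11A1 fell by 3.38 (SE 0.28, limma adjusted p = 0.0102), P3H2 fell by 2.40 (SE 0.21, limma adjusted p = 0.0117) and COL13A1 rose by 2.26 (SE 0.24, limma adjusted p = 0.0224). COL4A1, at -2.34 (SE 0.36), had a limma adjusted p of 0.0571. At an unadjusted p under 0.05 the members were 12 lower and 3 higher, beside 4.52% and 6.77% of all genes. On the 3 treated arrays against control, 3 members fell and 1 rose, against 0.236% of all genes lower and 0.849% higher. COL11A1 fell by 3.38 (SE 0.26, limma adjusted p = 0.0075), COL4A1 fell by 3.10 (SE 0.33, limma adjusted p = 0.0171), P3H2 fell by 1.36 (SE 0.19, limma adjusted p = 0.0349) and COL13A1 rose by 2.14 (SE 0.22, limma adjusted p = 0.0168). The median change of the members on the treated arrays against control was -0.64, with 29 of 35 below 0, beside -0.03 for all genes. At an unadjusted p under 0.05 the members were 14 lower and 1 higher, beside 6.66% and 7.74% of all genes.

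These calls rested on few arrays. The counts left after dropping 1 array stand without the share of all genes called, and are no result about the members. Lamin arrays against control gave 0 members without control 2 and without the prelamin A array, where COL11A1 still changed by -3.54 and -3.44, and 1 member without control 1, without the progerin array and without the prelamin A and ZMPSTE24 array. Treated arrays against control gave 0 members without control 2, where COL4A1 changed by -3.15, and 1 member without control 1, without the prelamin A and FTI array and without the prelamin A and ZMPSTE24 array. COL13A1 was not called with the mean of all its probe sets, at 1.46 on the lamin arrays and 1.19 on the treated arrays, each against control.

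Few members were called after FTI treatment or ZMPSTE24 expression. Each treated array was set against its untreated line, which shares that untreated array with the comparison against control. In progerin and FTI cells against progerin cells 1 member was higher and 0 lower, beside 0.503% and 0.951% of all genes, and the median change was -0.05. In prelamin A and FTI cells against prelamin A cells 0 were called in either direction by limma, beside 1.19% of all genes higher and 1.62% lower, and 1 member, COL4A1, had an unadjusted p under 0.05, at -0.99 (SE 0.37, limma adjusted p = 1). The median change there was -0.32, with 24 of 35 members below 0. In prelamin A and ZMPSTE24 cells against prelamin A cells 1 was higher and 3 lower, beside 2.18% and 2.85% of all genes, and the median was -0.31, with 26 below 0. The medians of all genes lay between -0.02 and -0.01.

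P3H2 was the member that rose after treatment. It rose by 1.25 in progerin and FTI cells against progerin cells (SE 0.37, limma adjusted p = 1), with signals of 128 and 44.6, and rose by 1.10 in prelamin A and ZMPSTE24 cells against prelamin A cells (SE 0.37, limma adjusted p = 0.911), with signals of 116 and 45.8. In prelamin A and FTI cells against prelamin A cells the change was 0.76 (SE 0.37, limma adjusted p = 1) and was not called. All 3 treated arrays stayed below both controls. Both rises were lost with a pseudocount of 64, at 0.82 for progerin and FTI and 0.72 for prelamin A and ZMPSTE24.

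The type IV chains moved further from the controls with ZMPSTE24. COL4A2 fell by 1.63 in prelamin A and ZMPSTE24 cells against prelamin A cells (SE 0.37, limma adjusted p = 0.658) and COL4A1 fell by 1.17 (SE 0.37, limma adjusted p = 0.893). COL10A1, a network collagen of growth cartilage that was dim here, fell by 2.12 (SE 0.51, limma adjusted p = 0.711). Its signals were 91.6 in progerin and FTI cells, 84.6 in progerin cells, 105 in prelamin A and FTI cells, 18.8 in prelamin A and ZMPSTE24 cells and 135 in prelamin A cells, against 123 and 66.0 in controls, so that only the ZMPSTE24 array lay outside the range of the rest on the low side. The other probe set above the minimum did not repeat this. There the ZMPSTE24 array gave 71.9, below the prelamin A array (161) but above progerin and FTI cells (40.7), prelamin A and FTI cells (54.0) and control 2 (64.5). Against control COL10A1 was not called at its brightest probe set, at -0.08 (SE 0.45) in progerin cells and 0.50 (SE 0.45) in prelamin A cells. P4HA3 had the largest differences not called, at -2.28 (SE 0.96) in prelamin A and ZMPSTE24 cells and -1.56 (SE 0.96) in prelamin A and FTI cells, each against prelamin A cells.

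Of the 9 members that fell in progerin cells, the progerin and FTI array was higher than the progerin array for 6 (COL5A1, COL5A2, COL5A3, COL8A1, COL11A1 and P3H2) and lower for 3. Of the 9 that fell in prelamin A cells, the prelamin A and FTI array was higher than the prelamin A array for 3 (COL8A1, COL11A1 and P3H2), and the prelamin A and ZMPSTE24 array was higher for 3 (COL8A1, COL15A1 and P3H2). COL13A1, COL18A1, COL6A6 and COL9A2, the 4 called higher in prelamin A cells, were lower on both treated arrays than on the prelamin A array. The untreated array stands in both comparisons, so these directions are not independent of the calls. On the treated arrays against the lamin arrays in the pooled model, limma called 0 members in either direction, as for all genes, and P3H2 was the 1 member with an unadjusted p under 0.05 (1.04, SE 0.19, limma adjusted p = 1), beside 0.691% of all genes higher and 1.3% lower at that threshold.

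**Figure D4:**
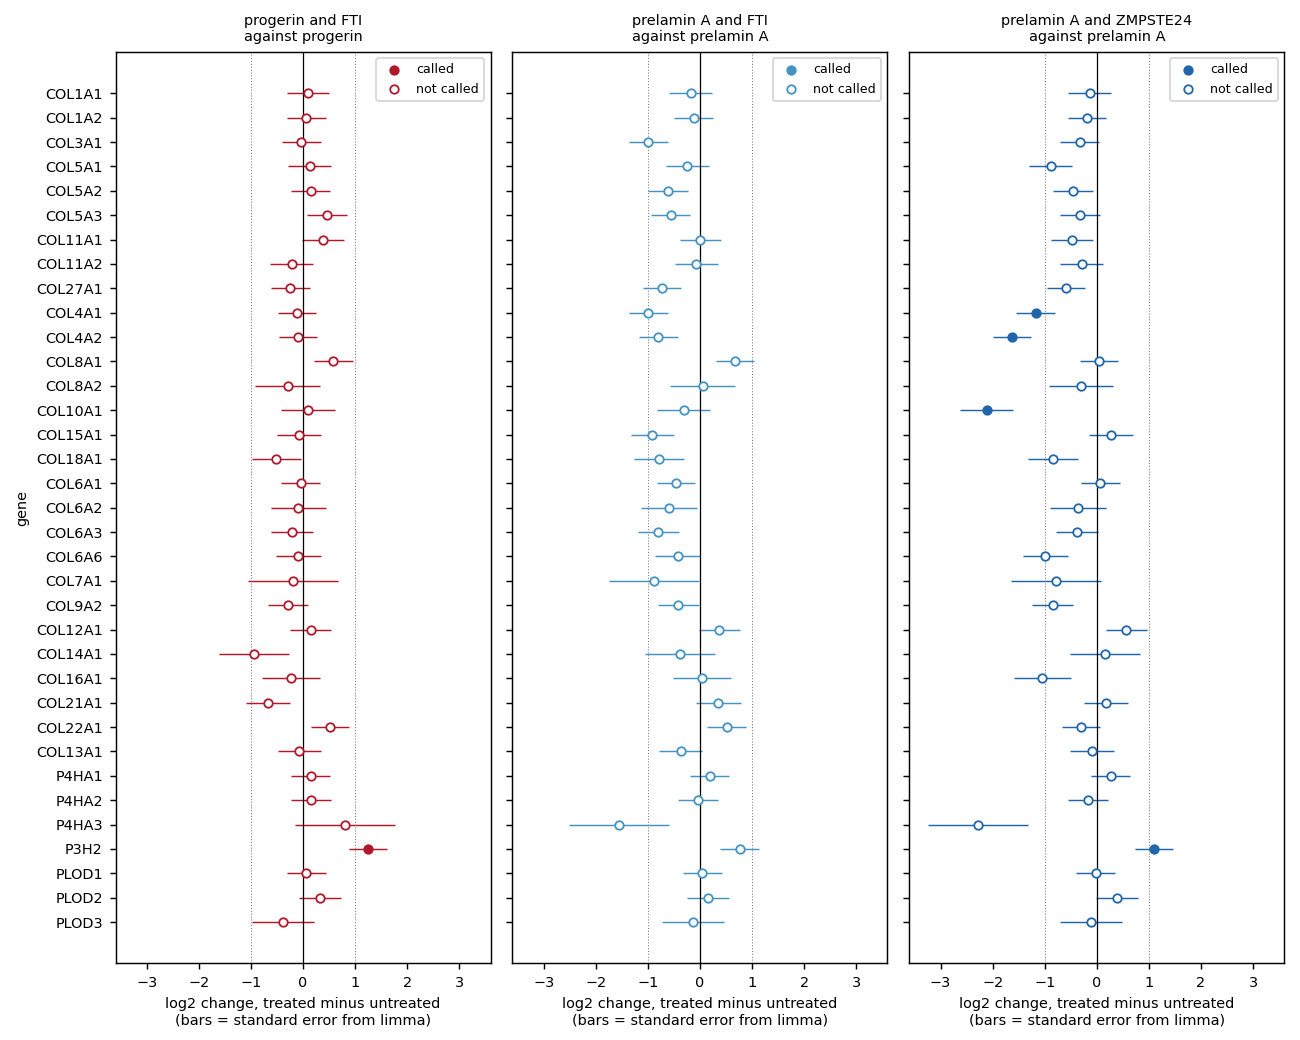
The panels give the log2 change of each tested member on a treated array against its untreated line, with standard errors from limma as bars and filled points for calls. P3H2 is filled on the right for progerin and FTI (1.25) and for prelamin A and ZMPSTE24 (1.10), COL4A1, COL4A2 and COL10A1 are filled on the left for ZMPSTE24, and no point is filled for prelamin A and FTI.

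The size of a change depended on the probe set for several abundant chains. Of the 35 members, 23 had more than 1 probe set above the minimum, and all probe sets of a gene had the same sign for 18 of them in progerin cells and for 19 in prelamin A cells. COL1A1 was the clearest case. At its probe sets, with mean signals of 31288, 25965, 7364 and 2887, the changes were -0.06, -0.93, -2.71 and -1.91 in prelamin A cells and -0.27, -0.54, -0.96 and -1.72 in progerin cells. The probe set with a mean of 7364 gave 6849 in progerin and FTI cells, 7078 in progerin cells, 1904 in prelamin A and FTI cells, 1671 in prelamin A and ZMPSTE24 cells and 2101 in prelamin A cells, against 7974 and 23969 in controls, and thus put all transduced arrays below controls that themselves differed widely. At the probe set with a mean of 25965 the controls were close, at 40161 and 41944, and the transduced arrays lay below them at 11201 to 28187. At that with a mean of 2887 the transduced arrays gave 1037 to 1909 against 4333 and 8401 in controls. The brightest probe set overlapped the controls.

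COL5A1 was lower at all its probe sets, with changes of -1.04, -1.73 and -1.76 in progerin cells and of -1.44, -2.08 and -2.18 in prelamin A cells, from the brightest to the dimmest. COL6A1 was not of 1 sign: its probe sets with mean signals from 1263 to 29664 gave changes of -1.35 to -0.21 in prelamin A cells, and 3 probe sets with means from 81.2 to 164 gave 0.07 to 0.10. Taking the second-brightest probe set wherever a gene had several, a choice made after the data were seen, gave 10 members called in progerin cells (8 lower) and 17 in prelamin A cells (11 lower). Without the share of all genes called at this setting beside them, these counts describe the probe sets and are no result about the members. Members not called at their brightest probe set but called at the second were COL18A1 in progerin cells, at 1.25 (SE 0.37), and, in prelamin A cells, PLOD2 at -1.30 (SE 0.39), COL12A1 at -1.07 (SE 0.37), COL11A2 at 1.27 (SE 0.49) and COL10A1 at 1.06 (SE 0.37). The second probe sets of COL11A2 and COL10A1 reached 100 only on prelamin A arrays. That of COL18A1 was 69.6 and 80.4 in controls and reached 100 only on transduced arrays. The calls of these 3 genes at their second probe sets are therefore a description and no support for a rise. COL5A3 was no longer called in progerin cells.

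**Figure D5:**
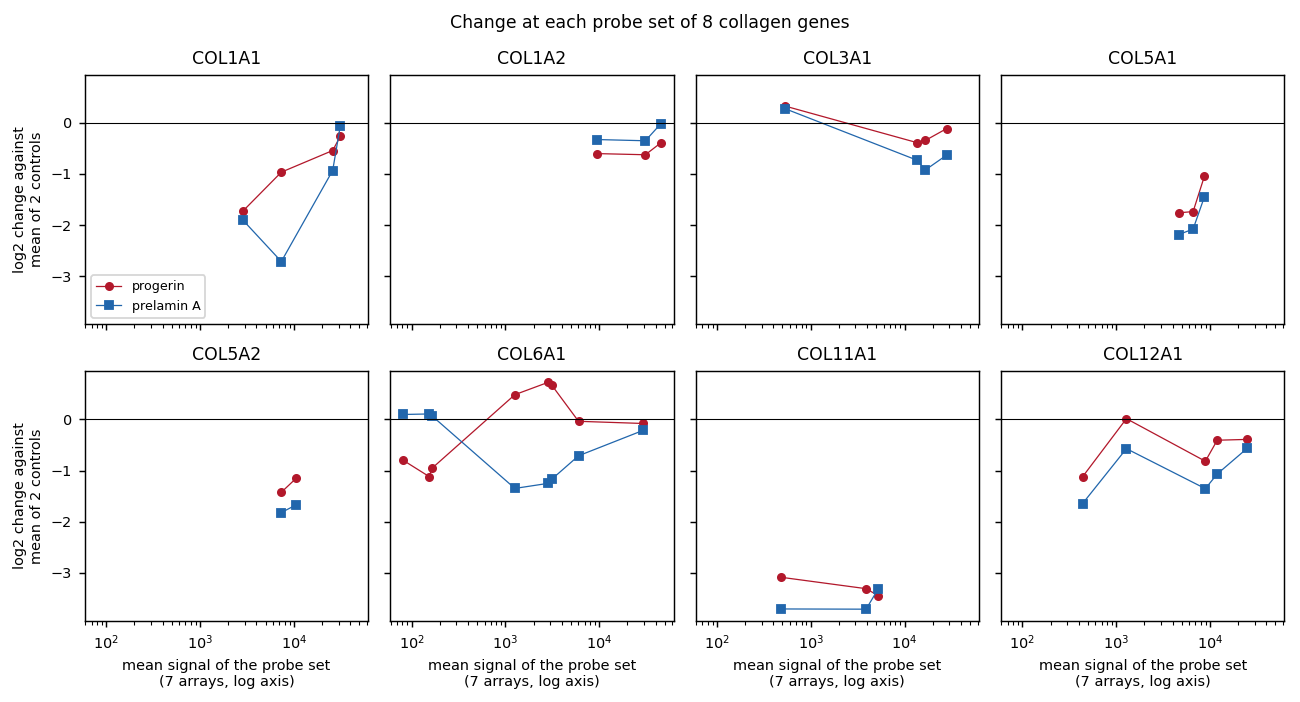
Each panel plots, for the probe sets of a collagen gene above the minimum, the log2 change against the mean of the 2 controls in progerin cells (red circles) and prelamin A cells (blue squares) by the mean signal of the probe set over the 7 arrays on a log axis. The COL1A1 points run between -0.06 at the brightest probe set and -2.71 at a dimmer one, while all COL11A1 points lie near or below -3.

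Genes that act on collagen outside the set were lower in part. Of 16 chaperones and other modifying enzymes 15 were tested, and in each line 4 fell and 1 rose, against 2.04% of all genes lower and 3.76% higher in progerin cells and 4.02% lower and 6.29% higher in prelamin A cells, with median changes of -0.55 with progerin and -0.46 with prelamin A. SERPINH1, the collagen chaperone of the endoplasmic reticulum, fell by 1.18 in progerin cells (SE 0.43) and fell by 1.91 in prelamin A cells (SE 0.43). P3H4, which belongs to a lysyl hydroxylation complex, fell by 1.38 (SE 0.39) in progerin cells and fell by 1.94 (SE 0.39) in prelamin A cells. TMEM38B, an ion channel of the endoplasmic reticulum, rose by 1.25 (SE 0.35) in progerin cells and 1.99 (SE 0.35) in prelamin A cells.

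Of 15 genes for procollagen processing and cross-linking 10 were tested, of which 1 fell in progerin cells, beside 2.04% of all genes, and 6 fell in prelamin A cells, beside 4.02%, with none higher at this threshold and median changes of -0.57 for progerin cells and -1.05 for prelamin A cells. ADAMTS2, which removes the amino-terminal propeptide, fell by 1.11 in progerin cells (SE 0.32) and fell by 1.31 in prelamin A cells (SE 0.32). LOXL4, a lysyl oxidase, had signals of 3606 in progerin and FTI cells, 3383 in progerin cells, 909 in prelamin A and FTI cells, 3290 in prelamin A and ZMPSTE24 cells and 488 in prelamin A cells, against 4227 and 2827 in controls, and fell by 2.79 in prelamin A cells (SE 0.40). Only the prelamin A array and the prelamin A and FTI array lay below the controls. LOXL1, another lysyl oxidase, fell by 1.33 in prelamin A cells (SE 0.32) and was not called in progerin cells, at 0.10 (SE 0.32).

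Receptors and degrading enzymes were called only in prelamin A cells among the line comparisons, a difference between the lines that was not tested. All genes called higher in prelamin A cells were 6.29% of those tested, and 1 or 2 genes of a short list are few to set against that share. Of 10 receptors 7 were tested and 2 rose, the integrin chains ITGA2 by 2.05 (SE 0.65) and ITGA10 by 1.07 (SE 0.34). Of 11 degrading enzymes 9 were tested and 1 rose, the interstitial collagenase MMP1, by 1.26 (SE 0.36), with signals of 33449 in prelamin A cells against 12175 and 15930 in controls. No gene of these lists passed an adjusted p of 0.05 in the pooled model.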

How the data were processed

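Total RNA of fibroblasts was hybridised to 7 arrays, and whether the control arrays came from separate cultures is not stated. The deposited values are linear intensity, the MAS5 signal of each probe set, which the authors had scaled, as the values show, to a common trimmed mean of 500.1 per array, which is not the target value that the methods state for the same software (Microarray Suite). Depth has no meaning for arrays, and their number limits the precision.

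The platform annotation gave 1 gene for 41091 of 54675 probe sets, several genes for 1801 and no gene for 11721, and RefSeq symbols and coordinates of GRCh38.p14 were found for 41037 of the 41091. Probe sets naming 1 gene were kept where any array reached a signal of 100, the brightest by mean stood for each gene, and log2(signal + 16) was fitted for 12726 genes in R 4.3.3 with limma 3.58.1 (lmFit and eBayes). The model of 6 conditions had 1 residual and 3.5 prior degrees of freedom, that of 3 states had 4 and 2.6, and p-values were adjusted by Benjamini-Hochberg over all genes. The S-score test of the study needs probe-level values and was not repeated. The script was checked on simulated data.

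Members described on every array were those called in at least 1 comparison, the 6 brightest, and those sharing a heterotrimer or enzyme family with them; for the other lists, the 3 called genes of largest change were named. The members and lists were chosen with earlier results of these data known. Alternatives were pseudocounts of 1 and 64, quantile normalization and median centring, other filters and probe set choices, an intensity trend, a p under 0.01, fold change without p, the line as a block and each array left out.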

Additional observations from a re-analysis of the deposited data

Results flagged for a closer look

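COL15A1, the multiplexin collagen, met the threshold for a difference between the lines, a comparison of 1 prelamin A array with 1 progerin array in which the controls cancel and give only the spread. Its change against control was lower in prelamin A cells than in progerin cells by a log2 difference of -1.66 (SE 0.42, limma adjusted p = 0.618), and 7.05% of all genes met the same threshold of a 2-fold difference and an unadjusted p under 0.05. It was the 1 member of 35 to meet it, a share below that of all genes and so no result about the members, and the larger difference of P4HA3, 2.42 (SE 0.96, limma adjusted p = 0.72), missed the p threshold.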

How the results depend on the processing

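No member called in the report changed direction under any alternative that was run. Of 437 repeats of a single-gene call, 374 passed the threshold applied and 63 did not. That threshold was the call itself in most settings. For line comparisons without a control array and for each other probe set, no test was run and a change over 2-fold was enough. Genes that a filter removed were not counted. The counts of members given next stand without the share of all genes called at the same setting. They describe how the calls depend on the processing and are no result about the members. An unadjusted p under 0.01 left 5 of 10 members in progerin cells, 6 of 13 in prelamin A cells, 0 of 1 for progerin and FTI and 1 of 4 for prelamin A and ZMPSTE24. For progerin and FTI the count was also 0 with an intensity trend and with a pseudocount of 64, and 2 with no filter. For prelamin A and FTI, with 0 called, it was 1 with fold alone, 1 with the mean of all probe sets and 4 with the second-brightest probe set, a setting added after the data were seen. In the pooled model, lamin arrays against control gave 6 members with an intensity trend instead of 3, and treated arrays against control gave 2 with the second-brightest probe set instead of 4. With each array left out in turn, lamin arrays against control gave 0 to 3 members and treated arrays against control 0 to 4, and by fold alone progerin cells gave 9 or 13 and prelamin A cells 14 or 18 without a control. The cause was not tested. With the line (progerin or prelamin A) as a block in the pooled model, 4 members were called on lamin arrays and 5 on treated arrays, each against control, and all 7 single-gene calls of that model were kept. No paired analysis was possible by replicate number because only the control condition had more than 1 array. The dim members COL5A3 (progerin cells), COL6A6 and COL9A2 (prelamin A cells) and P3H2 (both treatment rises) lost their calls with a pseudocount of 64.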
